A study of Mus musculus with 80 samples.

Results

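The 36 genes described here are interferon-stimulated genes measured in subcutaneous white fat of male mice of the BXD family, inbred strains bred from crosses between C57BL/6J and DBA/2J mice. They were chosen by symbol from a list of genes that type I interferon is known to induce, and all 36 were found among the 38827 genes with a symbol on the arrays, each measured by 1 feature. Each of the 80 arrays held RNA pooled from about 5 animals of 1 strain and 1 diet, killed at 29 weeks of age after an overnight fast. The chow group (42 arrays, 40 BXD strains and both parents) ate Harlan 2018 throughout life, and the high fat group (38 arrays, 36 BXD strains and both parents) ate Harlan 06414 from week 8. No group carried a transgene, a deletion or a drug treatment. There was 1 array for each strain and diet, so strains served as replicates. The p-values for diet, strain and parents rest on how much the change between the diets varies from strain to strain. Those for the regressions on Irf7 rest on how far strains lie from the fitted line.

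Type I interferons are released when cells sense foreign or misplaced nucleic acid. They bind a receptor shared by almost all cells, and a complex that holds the transcription factors STAT2 and IRF9 then binds interferon-stimulated response elements and switches on the genes described here. IRF7, itself induced by that complex, raises further interferon production, while USP18 and other induced proteins damp the signal. In fat, these genes are expressed by adipocytes, endothelial cells and resident immune cells, and macrophages are a rich source of them.

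The response element consists of GAAA repeats 2 bases apart, and it was searched as GAAANNGAAA on either strand in RefSeq promoter windows of the GRCm38.p6 assembly, each running from 250 bases before the transcription start to 50 after it. Of the 36 members, 27 had a window (all but Dhx58, Zbp1, Oas2, Mx1, Mx2, Rtp4, Usp18, Parp9 and Parp14). A match lay in the window of 16 of the 27, against 3.44% of all 32851 windows and 3.99% of 27025 genes with a window. The 150 bases before the start are shown for 5 members with a match there that the results below turn on, from 5′ to 3′ on the gene's strand, with the matches to GAAANNGAAA or its reverse complement TTTCNNTTTC in capitals. Overlapping matches run together.
Isg15, chr4:156200819-156200968, minus strand: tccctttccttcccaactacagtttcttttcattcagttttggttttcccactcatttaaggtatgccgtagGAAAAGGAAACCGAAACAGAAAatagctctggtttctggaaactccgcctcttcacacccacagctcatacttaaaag
Oas1a, chr5:120907526-120907675, minus strand: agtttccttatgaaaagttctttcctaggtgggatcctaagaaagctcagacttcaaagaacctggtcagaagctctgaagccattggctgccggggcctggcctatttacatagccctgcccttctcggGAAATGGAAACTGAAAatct
Ifit1, chr19:34640739-34640888, plus strand: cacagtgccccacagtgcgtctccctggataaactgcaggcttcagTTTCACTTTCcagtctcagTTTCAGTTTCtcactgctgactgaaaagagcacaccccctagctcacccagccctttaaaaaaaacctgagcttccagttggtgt
Rsad2, chr12:26456453-26456602, minus strand: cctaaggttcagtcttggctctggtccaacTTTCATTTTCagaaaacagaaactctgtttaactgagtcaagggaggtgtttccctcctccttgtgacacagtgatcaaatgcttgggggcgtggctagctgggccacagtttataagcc
Bst2, chr8:71537473-71537622, minus strand: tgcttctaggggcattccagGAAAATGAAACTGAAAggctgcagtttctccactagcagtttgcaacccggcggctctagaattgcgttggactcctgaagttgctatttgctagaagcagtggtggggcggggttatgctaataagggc

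Isg15 held 3 overlapping matches, starting 78, 72 and 66 bases before the start, Oas1a and Bst2 held 2 overlapping matches each, Ifit1 held 2 separate matches and Rsad2 held 1. For 6 further members a match before the start is given with 10 bases on each side, to show how the letters between and around the GAAA repeats differ from gene to gene. Ifit3, Gbp3 and Irgm1 held 2 matches each in that window, and only the later one is in capitals. In Gbp3 and Irgm1 the 2 overlap, so the first 6 bases of the other match are in small letters.
Ifit3, chr19:34583397-34583426, plus strand: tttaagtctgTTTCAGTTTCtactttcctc
Stat2, chr10:128270266-128270295, plus strand: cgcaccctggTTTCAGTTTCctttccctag
Oas3, chr5:120777715-120777744, minus strand: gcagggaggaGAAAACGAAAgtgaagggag
Gbp2, chr3:142620594-142620623, plus strand: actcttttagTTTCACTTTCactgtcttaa
Gbp3, chr3:142559995-142560024, plus strand: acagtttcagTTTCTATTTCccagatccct
Irgm1, chr11:48871425-48871454, minus strand: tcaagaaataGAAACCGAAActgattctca

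Of 14 members with a window that rose on high fat, 7 held no match (Irf7, Irf9, Oasl1, Oasl2, Cmpk2, Ifi44 and Dtx3l). Of 13 with a window that did not pass the diet test in 38 strains, 4 held none (Ifit2, Ifi35, Xaf1 and Herc6). A difference between these groups was not tested. A match describes the letters and not binding, and the absence of one says only that these letters are not in that window.

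Levels are deposited scores, and the chow and high fat levels of genes and marker lists are given over the 38 strains with both diets. Every array had a mean of 8 and an SD of 2 over its 65770 features, so differences are given in scale units, each worth 0.5 of an array's SD, and not as folds. Fat cell markers were high on every array (the mean of 7 markers lay between 13.64 and 14.56 on chow and between 13.67 and 14.50 on high fat). The 10 skeletal muscle markers ranged from 8.70 to 14.67 on chow and from 8.92 to 14.20 on high fat, and the 12 B cell and lymph node markers from 8.58 to 11.47 and from 8.25 to 11.55. Chow and high fat arrays with the same strain label did not always match. Over 30 genes outside the lists used here, each at 2 separate levels in both diets, 23 strains matched their own high fat array best or equally well (90% to 100% of genes at the same level), and both parents were among them. In 15 strains the high fat array of another strain matched better, and only 36.7% to 76.7% of genes were at the same level on their own: BXD51, BXD55, BXD63, BXD73, BXD75, BXD79, BXD80, BXD81, BXD83, BXD84, BXD85, BXD87, BXD89, BXD90 and BXD95. The chow arrays labelled BXD51 and BXD55 each matched the other's high fat array best (86.7% and 93.3%). That of BXD83 matched BXD80 at 100%, that of BXD84 matched BXD81 at 96.7% and that of BXD85 matched BXD83 at 96.7%. The best match was weakest for BXD63 (66.7%, with BXD69). Whether labels had been exchanged was not tested. No array was moved, and every array is called by its label. Results are given for all 38 strains and for the 23 whose arrays matched. Most slopes of single members on Irf7, single pathway genes, other named genes like Irf7 and pairs of members are given for 38.

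The comparison of diets within strains asks how the interferon genes differ after long high fat feeding. On high fat, 19 of the 36 members were higher and 0 lower in 38 strains, where 36.7% of all genes tested were higher and 24.5% lower. In the 23 matching strains 23 members were higher and 0 lower, against 32.5% and 22.2% of all genes. The median change over the members was 0.14 units (range -0.0696 to 0.484), beside 0.0267 over all genes, and in the 23 strains 0.173 beside 0.0244. Only Zbp1, Usp18 and Herc6 had a mean change below 0, and none of these passed the test. All adjusted p-values are from limma, adjusted over all 38827 genes unless stated otherwise.

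Macrophage markers moved in the same direction: 12 of 14 were higher on high fat and 0 lower. The mean of that list ran from 9.41 to 11.02 (median 9.99) on chow and from 9.73 to 11.61 (median 10.74) on high fat, and it was higher in 36 of 38 strains (mean change 0.61 ± 0.50, SD). With that mean as a covariate, 0 members were higher and 1 (Mx2) was lower in 38 strains, where 21.3% and 12.4% of all genes were called, and 1 member (Dtx3l) was higher and 0 lower in the 23 strains, against 12.3% and 9.51%. Endothelial markers were also higher on high fat (6 of 7, 0 lower), their mean changed by 0.26 ± 0.27 and was higher in 31 of 38 strains, and their part in the diet change was not tested. T and NK cell markers (6 of 11), B cell and lymph node markers (8 of 12), skeletal muscle markers (10 of 10) and skin markers (6 of 8) were lower on high fat. With covariates for the skin, muscle and B cell lists 12 members were higher, and the calls of Oas2, Ifit1, Rtp4, Parp9, Parp14, Gbp3 and Irgm1 were lost. The share of all genes called with those 3 lists is not given, so the count cannot be set beside it. Markers of plasmacytoid dendritic cells, which release much interferon, did not move with the macrophage markers: 0 of 6 were higher and 3 lower, and their mean changed by -0.16 ± 0.26. Of the 3 lower ones, Ccr9 and Klk1 had low mean levels (7.54 and 7.77, beside a median of 8.279 over all genes). Cox6a2 had the largest change of the list (-0.32) and did not pass (limma adjusted p = 0.119). Whether this list follows that cell type here was not tested. Fewer cells of a type and less RNA per cell cannot be told apart in whole tissue, and the part of the macrophage markers in the diet change was not tested beyond that covariate.

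**Figure D1:**
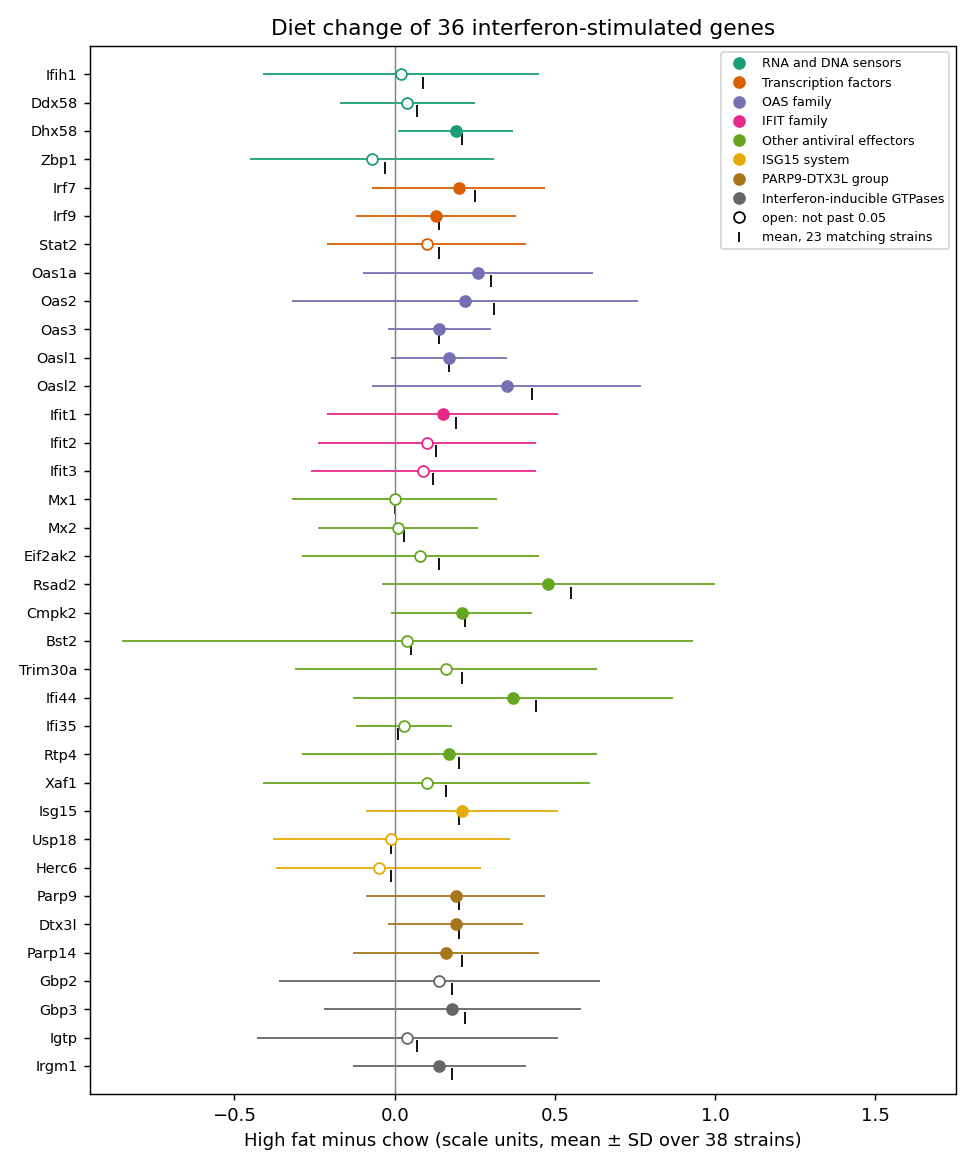
Change of each member on high fat (horizontal axis, high fat minus chow in scale units), with points and bars for the mean ± SD over 38 strains, filled where the adjusted p was below 0.05, colours for the members' roles and ticks for the mean of the 23 matching strains. Rsad2 lies farthest right at 0.48, all 5 OAS genes are filled, and Mx1, Mx2, Usp18 and Bst2 lie near 0.

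Of the 4 members that sense nucleic acid 1 rose. Dhx58, the LGP2 helicase that tunes the RNA sensors, went from a lowest, median and highest level of 8.56, 8.76 and 9.11 on chow to 8.69, 8.93 and 9.30 on high fat. It was higher in 34 of 38 strains, by 0.19 ± 0.18 (SD, adjusted p = 4.90e-07), although the groups overlap. Ifih1 and Ddx58, the RNA sensors MDA5 and RIG-I, changed by 0.02 ± 0.43 and 0.04 ± 0.21, and Zbp1, a sensor of Z-form nucleic acid, by -0.07 ± 0.38. None of these 3 passed the test in 38 or in 23 strains.

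Of the transcription factors, Irf7 ran from 9.17 to 10.13 (median 9.54) on chow and from 9.35 to 10.36 (median 9.74) on high fat. It was higher in 27 of 38 strains, by 0.20 ± 0.27 (adjusted p = 0.000146), and in 19 of the 23 matching strains, by 0.25 ± 0.21 (adjusted p = 2.35e-05). Irf9, the DNA-binding part of the interferon-activated complex, ran from 9.06 to 10.03 (median 9.48) on chow and from 9.15 to 10.10 (median 9.62) on high fat, and rose by 0.13 ± 0.25 (27 of 38 strains, adjusted p = 0.0060), a call lost under quantile normalization (0.09, adjusted p = 0.0537). Stat2, its partner, ran from 9.84 to 10.82 (median 10.33) and from 10 to 11.07 (median 10.38). Its change of 0.10 ± 0.31 did not pass in 38 strains (adjusted p = 0.0657), and in the 23 strains it rose by 0.14 ± 0.23 (adjusted p = 0.0156).

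All 5 members of the OAS family rose in both sets of strains. Several OAS proteins, though not all, make oligoadenylates that activate an RNA-degrading enzyme when they meet double-stranded RNA. Oasl2 ran from 8.28 to 9.52 (median 8.79) on chow and from 8.57 to 9.93 (median 9.13) on high fat, and rose by 0.35 ± 0.42 in 29 of 38 strains (adjusted p = 1.65e-05). Oas1a ran from 8.10 to 9.38 (median 8.68) and from 8.32 to 9.70 (median 8.92), a rise of 0.26 ± 0.36 in 31 strains (adjusted p = 0.000115). Oas2 had wider limits, from 8.00 to 9.73 (median 8.79) and from 7.97 to 9.87 (median 8.99), and rose by 0.22 ± 0.54 in 25 strains (adjusted p = 0.0217). Oasl1, which in mice restrains translation of Irf7, rose by 0.17 ± 0.18, and Oas3 by 0.14 ± 0.16. The 3 genes Oas1a, Oas2 and Oas3 neighbour each other and have close relatives, and whether signal is shared between copies was not tested.

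Of the IFIT family, whose proteins bind foreign RNA, Ifit1 ran from 8.01 to 9.42 (median 8.65) on chow and from 8.36 to 9.55 (median 8.78) on high fat. It rose by 0.15 ± 0.36 in 24 of 38 strains (adjusted p = 0.0202). The calls of Ifit1, Oas2 and Rtp4 were lost when strain was left out as a block, and that of Rtp4, an interferon-induced receptor transporter that rose by 0.17 ± 0.46 (adjusted p = 0.0405), was also lost without any 1 of 14 strains. Ifit2 and Ifit3 changed by 0.10 ± 0.34 and 0.09 ± 0.35, and neither passed the test in either set of strains.

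Rsad2 had the largest change of all members. It encodes viperin, which makes a nucleotide that stops viral RNA synthesis. Its levels ran from 8.22 to 9.66 (median 8.95) on chow and from 8.37 to 10.22 (median 9.49) on high fat, and it rose by 0.48 ± 0.52 in 31 of 38 strains (adjusted p = 2.34e-06) and by 0.55 ± 0.37 in 20 of 23 (adjusted p = 7.80e-07). Cmpk2, a mitochondrial nucleotide kinase encoded beside Rsad2, ran from 8.80 to 9.57 (median 9.18) and from 9.05 to 9.92 (median 9.36), a rise of 0.21 ± 0.22 in 32 strains (adjusted p = 3.29e-06). Ifi44, an interferon-induced cytoplasmic protein, ran from 7.06 to 9.48 (median 8.07) on chow and from 7.77 to 9.74 (median 8.46) on high fat. It rose by 0.37 ± 0.50 in 29 strains (adjusted p = 8.54e-05).

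Other antiviral effectors did not pass the diet test. Mx1, a dynamin-like GTPase whose gene is defective in most classical inbred strains, ran from 7.57 to 8.82 (median 7.90) on chow and from 7.55 to 8.54 (median 7.95) on high fat, and was higher in 19 strains and lower in 19. Its change was 0.00 ± 0.32 (adjusted p = 0.998), and that of Mx2 0.01 ± 0.25. Bst2, or tetherin, which holds budding viruses on the cell surface, ran from 9.41 to 12.79 (median 9.88) and from 9.60 to 12.77 (median 9.95), with a change of 0.04 ± 0.89 in 38 strains (adjusted p = 0.795) and 0.05 ± 0.38 in 23. Trim30a, Xaf1, Gbp2 and Stat2 passed in the 23 matching strains and not in all 38, with changes of 0.21, 0.16, 0.18 and 0.14.

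Isg15, a ubiquitin-like protein attached to other proteins during the response, ran from 6.40 to 7.37 (median 6.88) on chow and from 6.72 to 7.58 (median 7.08) on high fat, and rose by 0.21 ± 0.30 in 29 of 38 strains (adjusted p = 0.000175). Usp18, which removes Isg15 and blocks the interferon receptor, changed by -0.01 ± 0.37, with 19 strains higher and 19 lower. Herc6, the ligase that attaches Isg15 in mice, changed by -0.05 ± 0.32. The 3 neighbouring genes of the PARP9-DTX3L group, which encode ADP-ribosylating enzymes and a ubiquitin ligase partner, all rose. Parp9 ran from 9.52 to 10.43 (median 10.05) and from 9.64 to 10.59 (median 10.25), a rise of 0.19 ± 0.28 in 28 strains (adjusted p = 0.000426). Dtx3l ran from 10.05 to 10.77 (median 10.49) and from 10.35 to 10.95 (median 10.64), a rise of 0.19 ± 0.21 in 31 strains (adjusted p = 1.14e-05), and Parp14 rose by 0.16 ± 0.29. Of the interferon-inducible GTPases, which attack the compartments of intracellular microbes, Gbp3 and Irgm1 rose by 0.18 ± 0.40 and 0.14 ± 0.27 (calls lost under quantile normalization, with adjusted p = 0.0614 and 0.0841), and Gbp2 and Igtp changed by 0.14 ± 0.50 and 0.04 ± 0.47.

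Other parts of the pathway were read in the same fit, so the same background of 36.7% higher and 24.5% lower applies. With the macrophage covariate the pathway genes called higher over the 6 lists numbered 11 in place of 43 (12 in the 23 strains), and those called lower 8 in place of 14 (1 in the 23 strains). The background fell with that covariate too, to 21.3% of all genes higher and 12.4% lower (12.3% and 9.51% in the 23 strains). Of 15 receptor and signalling genes 9 were higher and 0 lower, among them Ifngr2, a chain of the type II receptor (0.29 ± 0.18, higher in 37 strains), Irf5 (0.25 ± 0.24) and Ifnar1, a chain of the type I receptor (0.22 ± 0.19). The counts in the 23 strains were 9 and 0. Of 12 interferon genes 4 were higher and 4 lower (5 and 3 in the 23 strains), with Ifne at 0.31 ± 0.23, Ifna2 at -0.24 ± 0.20 and Ifnk at -0.17 ± 0.27. Ifnb1 changed by 0.04 ± 0.25 (adjusted p = 0.449) and Ifng by 0.01 ± 0.18 (adjusted p = 0.754). Ifne, Ifna2, Ifnk, Ifnb1 and Ifng had mean levels of 7.03, 6.77, 5.59, 6.57 and 6.78, under the median of 8.279 over all genes. Their values are thus low signals, and whether they follow interferon RNA was not tested. Of 13 nucleic acid sensing genes 5 were higher and 0 lower in both sets of strains, led by Tlr8, an endosomal RNA receptor (0.89 ± 0.83, 32 strains), Unc93b1, which escorts such receptors to endosomes (0.37 ± 0.31), and Tlr7 (0.30 ± 0.52).

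Among 10 genes that restrain the response, 4 were higher and 1 lower (3 and 1 in the 23 strains), with Rnaseh2b, part of an enzyme that clears RNA-DNA hybrids, at 0.24 ± 0.17, the RNA-editing enzyme Adar at 0.17 ± 0.17 and the receptor inhibitor Socs1 at 0.14 ± 0.26. The call of Socs1 was lost in the 23 strains (0.12, adjusted p = 0.056). Of 11 antigen presentation genes measured, 4 were higher and 1 lower in both sets of strains: Tapbp rose by 0.29 ± 0.21 and H2-K1 by 0.22 ± 0.21, while the peptide transporter gene Tap1 changed by -0.13 ± 0.36. Of 51 other interferon-inducible genes measured, 17 were higher and 8 lower (19 and 6 in the 23 strains). Ms4a4c changed by -0.61 ± 1.02, Epsti1 by -0.39 ± 0.73 and Lgals3bp by 0.60 ± 0.55. The median change lay between 0.01 and 0.08 units in each of the 6 lists.

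The comparison of strains asks how far the level of each member belongs to the strain. In 38 strains 13 of 36 members passed limma's F test for strain, where 10.4% of all genes did. In the 23 matching strains 30 of 36 passed, where 17.7% of all genes did. Leaving out 1 strain gave 8 members without BXD45 or without BXD100 and 20 without BXD51. The share of variance between strains (an intraclass correlation computed after subtracting each diet's mean) had a median of 0.317 over the members and 0.146 over all genes in 38 strains, and of 0.595 and 0.190 in the 23 strains. Every one of the 36 members had the larger share in the 23 strains.

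**Figure D2:**
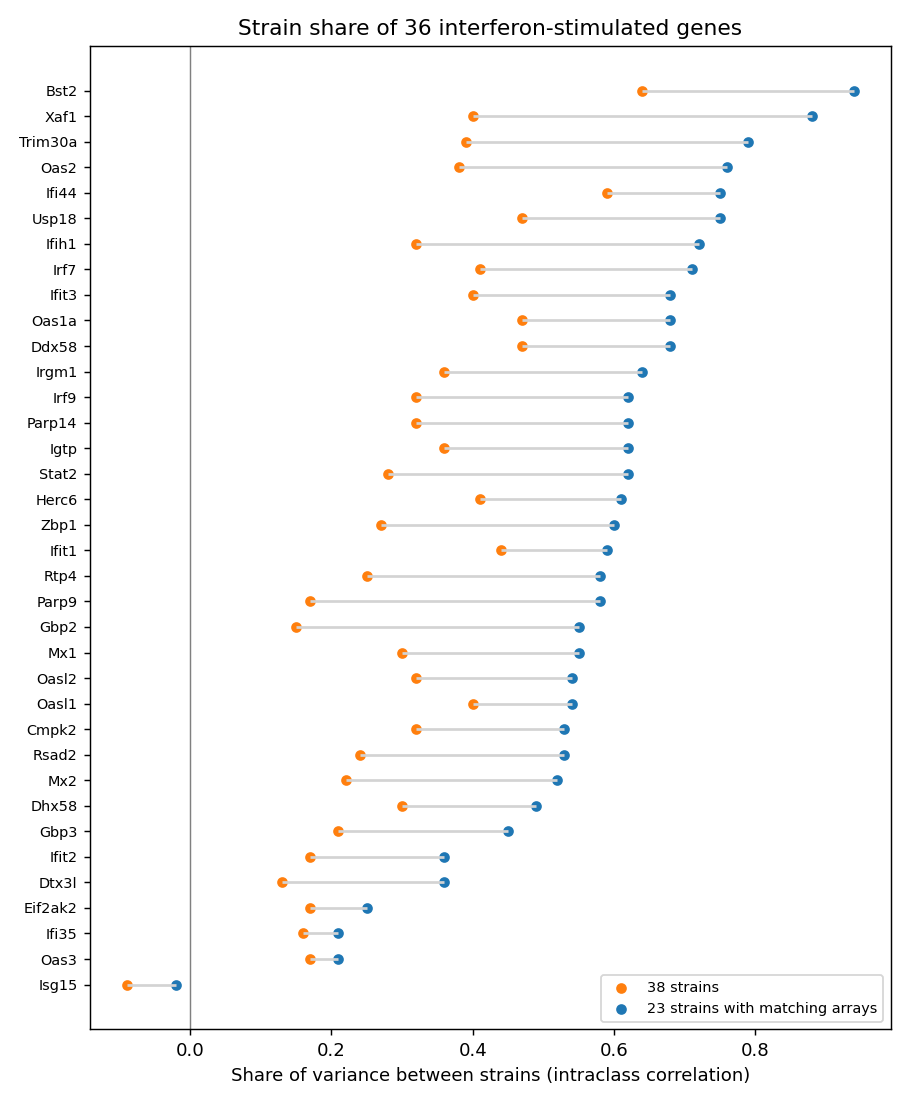
Share of variance between strains (horizontal axis, intraclass correlation, no unit) for each member, in orange for 38 strains and in blue for the 23 matching strains. Bst2 is highest at 0.64 and 0.94, Isg15 is lowest at -0.09 and -0.02, and the blue points lie to the right of the orange ones.

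Bst2 was the member most divided by strain. On chow 28 arrays lay between 9.41 and 10.35 and 14 between 11.38 and 12.79, with none between, and on high fat 27 arrays lay between 9.60 and 10.34 and 11 between 11.54 and 12.77. All 23 matching strains lay on the same side on both diets: 8 were high (C57BL/6J, BXD45, BXD49, BXD62, BXD65, BXD70, BXD97 and BXD98) and 15 low, DBA/2J among them. Of the 15 other strains 8 lay on the same side on both diets. The strain share was 0.64 in 38 strains (adjusted p = 0.000615) and 0.94 in 23 (adjusted p = 1.61e-11).

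The next largest strain shares over 38 strains were those of Ifi44 (0.59, adjusted p = 0.00195), Usp18 (0.47), Ddx58 (0.47), Oas1a (0.47) and Ifit1 (0.44). In the 23 strains Xaf1, which binds an inhibitor of cell death, followed Bst2 with 0.88 (adjusted p = 1.92e-07), then Trim30a with 0.79 and Oas2 with 0.76. Usp18 ran from 8.55 to 10.40 (median 9.19) on chow and from 8.51 to 9.99 (median 9.20) on high fat, and the array labelled BXD45 was highest on chow. Ddx58 ran from 9.24 to 10.22 (median 9.76) and from 9.52 to 10.22 (median 9.80), a narrower range than that of Usp18.

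The smallest shares over 38 strains were those of Isg15 (-0.09, adjusted p = 0.745), Dtx3l (0.13, adjusted p = 0.394) and Gbp2 (0.15, adjusted p = 0.287). In the 23 strains Isg15 stayed at -0.02 (adjusted p = 0.611), Dtx3l was at 0.36 (adjusted p = 0.130) and Gbp2 at 0.55 (adjusted p = 0.00884). Isg15 also had the lowest mean level of the members (6.998, above 25.6% of all genes), and whether low signal makes its share small was not tested. Gbp2 ran from 10.63 to 12.29 (median 11.32) on chow and from 10.74 to 12.24 (median 11.47) on high fat. The 6 members that passed in neither set were Isg15, Oas3, Ifi35, Eif2ak2, Ifit2 and Dtx3l.

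**Figure D3:**
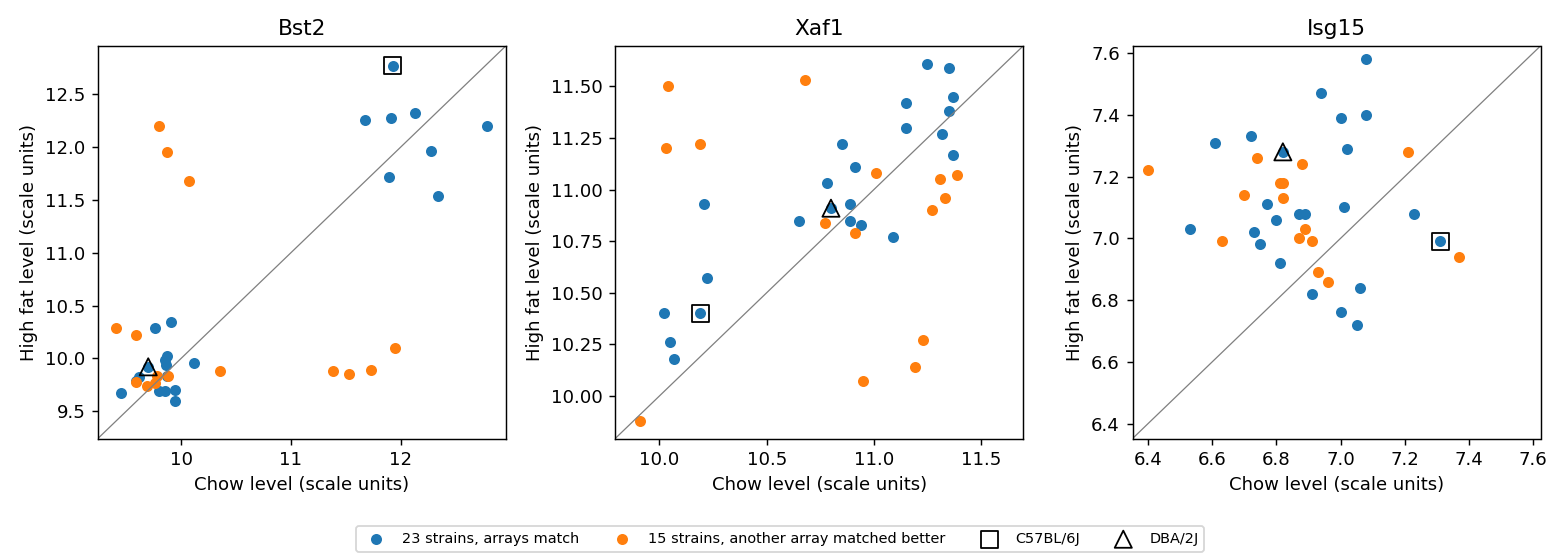
Level of Bst2, Xaf1 and Isg15 in each of 38 strains on chow (horizontal axis) and high fat (vertical axis), in scale units, with blue points for the 23 matching strains, orange points for the 15 others, outlined points for the parents and a line of equality. For Bst2 all blue points lie in the lower left or the upper right group, and for Isg15 no such order is seen.

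Averaged over the 36 members as deviations from each gene's mean over all arrays, the chow arrays ran from -0.39 (labelled BXD55) to 0.42 (BXD45), with a median of -0.04, and the high fat arrays from -0.24 (labelled BXD89) to 0.48 (BXD103), with a median of 0. The mean of both diets was highest in BXD45 (0.42), BXD49 (0.38) and BXD101 (0.29), all of them matching strains, and lowest in the strains labelled BXD89 (-0.29) and BXD63 (-0.28) and in BXD100 (-0.27). BXD103 went from -0.01 on chow to 0.48 on high fat, and BXD45 stayed at 0.42 and 0.43.

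The parents were compared by their strain coefficients, DBA/2J minus C57BL/6J, with 2 arrays each and the spread taken from all strains of the fit. In 38 strains 2 members were lower in DBA/2J and 0 higher, where 4.61% of all genes were lower and 7.08% higher. In the 23 strains 7 were lower and 1 higher, against 6.39% and 8.59%. The count of lower members was 1 without any 1 of 22 strains and 5 without BXD51. The estimate was below 0 for 29 of the 36 members (median -0.299, beside 0.067 over all genes).

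Bst2 had the largest difference. It was at 11.93 on chow and 12.77 on high fat in C57BL/6J, and at 9.70 and 9.92 in DBA/2J, a difference of -2.55 units (SE 0.601, adjusted p = 0.00446 in 38 strains, 3.49e-07 in 23). Both arrays of DBA/2J thus lay in the lower group of strains and both of C57BL/6J in the upper group. Ifit1 was at 9.06 and 9.38 in C57BL/6J and at 8.63 and 8.36 in DBA/2J, a difference of -0.72 (SE 0.245, adjusted p = 0.0483 in 38 strains, 0.0333 in 23). Its 4 arrays do not overlap between the parents, but neither do those of Irf7 and Dhx58, which did not pass. With 2 arrays for each parent such a gap says little.

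The 5 other members lower in DBA/2J in the 23 strains alone were Trim30a (-0.91, adjusted p = 0.0017), Zbp1 (-0.67, adjusted p = 0.0156), Mx1 (-0.62, adjusted p = 0.0215), Usp18 (-0.58, adjusted p = 0.0308) and Irgm1 (-0.49, adjusted p = 0.0207). Xaf1 went the other way, from 10.19 and 10.40 in C57BL/6J to 10.80 and 10.91 in DBA/2J (0.56, adjusted p = 0.0133 in 23 strains, 0.309 in 38). Irf7 was at 9.93 and 9.81 in C57BL/6J and at 9.32 and 9.61 in DBA/2J, a difference of -0.41 that did not pass (adjusted p = 0.154 and 0.0564). A probe that binds the DNA of one parent less well would give a difference of its own, and the part of such sequence differences was not tested.

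Irf7 was taken as a measure of the programme by itself, so that no score over the members was needed, and each gene was regressed on it over 38 strain means of both diets. Of all 38826 other genes 34 had a positive slope past the threshold (0.0876%), and 18 of these were among the 35 other members. In the 23 strains the count was 16 members of 26 genes (0.0670% of all), on the 42 chow arrays alone 17 of 39 (0.100%) and on the 38 high fat arrays alone 19 of 30 (0.0773%). The median correlation with Irf7 over the strain means was 0.670 for the members and -0.0152 for all genes. Genes measured on the same arrays share those pools, so any part of the tissue that differs between pools enters both sides of the regression. Over the strain means 0 of the 14 macrophage markers had a positive slope past the threshold, and over the diet changes 1 did (C1qa). So few of all genes passed (0.0876% and 0.214%) that these counts say little about macrophages. With the mean of the macrophage markers as a covariate, 18 members passed over the 38 strain means and 19 over the diet changes.

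Ifit3 rose by 1.09 units per unit of Irf7 (SE 0.102, adjusted p = 1.08e-08, r = 0.87, Spearman's rho = 0.84, and r = 0.84 without the 2 strains farthest in Irf7). Usp18 had a slope of 1.24 (SE 0.118, adjusted p = 1.08e-08, r = 0.86, rho = 0.89, 0.83 without those strains). Dhx58 had a slope of 0.50 (SE 0.0531, adjusted p = 1.16e-07, r = 0.86) and Oas1a of 1.17 (SE 0.125, adjusted p = 1.16e-07, r = 0.84). Oas2 and Ifi44 had the steepest slopes past the threshold, 1.57 each (SE 0.169 and 0.275). Mx1 (0.85), Ifit1 (1.11), Stat2 (0.68), Irf9 (0.59) and Isg15 (0.47) passed as well.

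All 5 OAS genes passed, and both other transcription factors did. None of the PARP9-DTX3L group passed and none of the 4 GTPases did. Rsad2 had a slope of 0.72 (SE 0.221, adjusted p = 0.586) and Dtx3l of 0.05 (SE 0.093, adjusted p = 0.985). Bst2 lay in 2 groups of strains, so no correlation is given for it, and its slope of 2.60 (SE 0.578) did not pass (adjusted p = 0.0612).

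**Figure D4:**
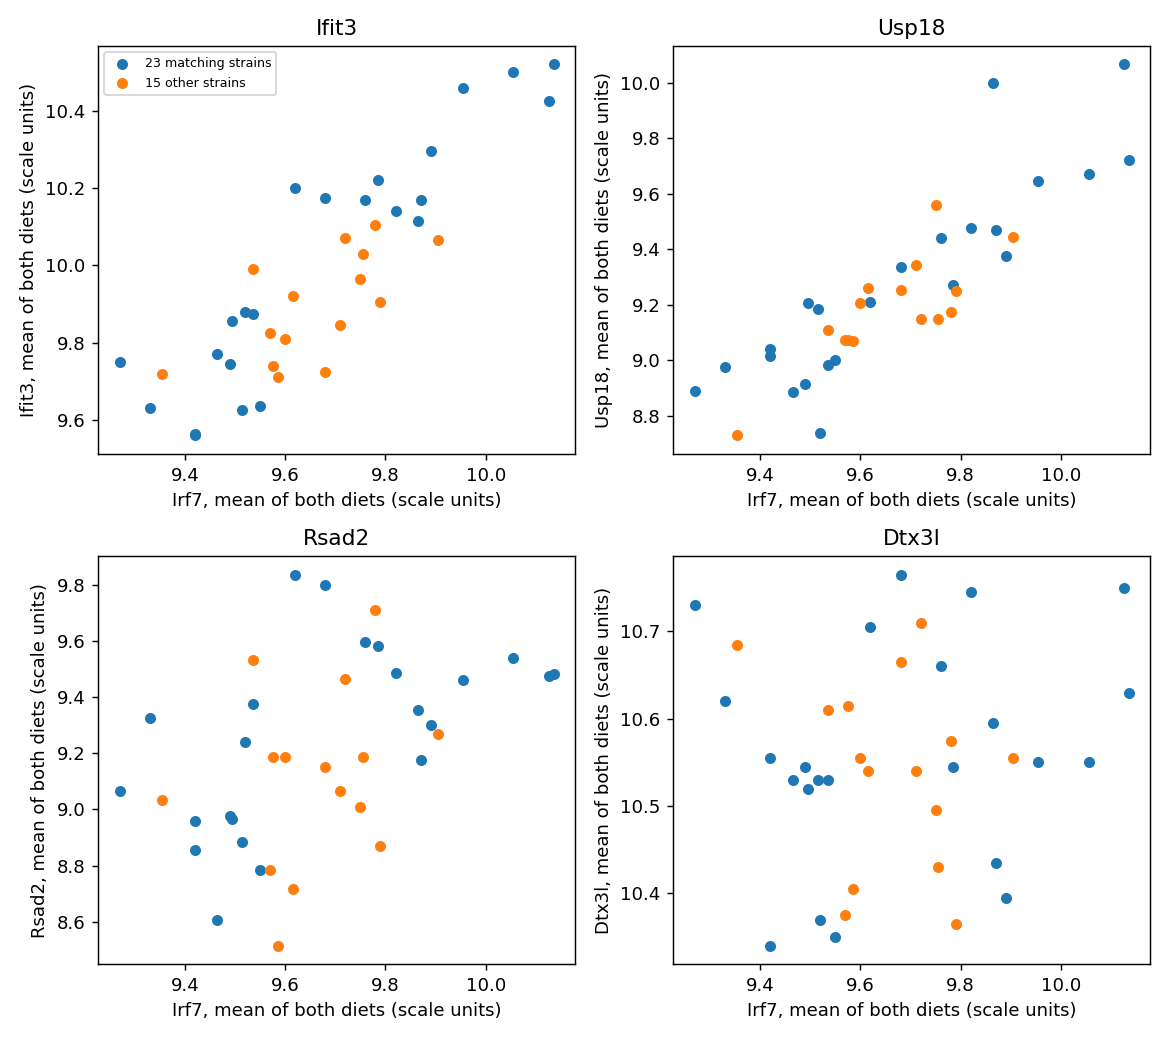
Level of Ifit3, Usp18, Rsad2 and Dtx3l (vertical axes) against that of Irf7 (horizontal axis), each the mean of both diets in scale units, with a point for each of 38 strains, blue for the 23 matching strains and orange for the 15 others. Ifit3 and Usp18 climb with Irf7 at slopes of 1.09 and 1.24, Rsad2 scatters more widely and Dtx3l shows no slope past the threshold (0.05).

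The diet test and the Irf7 regression over strain means picked out partly different members. Of the 35 members other than Irf7, 12 passed both in the 38 strains, to which these sets refer: Dhx58, Irf9, the 5 OAS genes, Ifit1, Cmpk2, Ifi44, Rtp4 and Isg15. Another 6 rose with the diet and did not pass against Irf7 (Rsad2, Parp9, Dtx3l, Parp14, Gbp3 and Irgm1), 6 passed against Irf7 and not for the diet (Zbp1, Stat2, Ifit3, Mx1, Mx2 and Usp18), and 11 passed neither. That the members of these sets differ from each other was not tested.

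The change with diet was also regressed on the change of Irf7. In 15 of the 38 strains another strain's high fat array matched better. Their change can therefore hold a difference between strains beside that of diet, and its part in the slopes was not tested. In 38 strains 20 of 35 members had a positive slope past the threshold, where 83 of all genes did (0.214%), led by Dhx58 (0.57, SE 0.0629, adjusted p = 1.32e-06, r = 0.87) and Irf9 (0.76, SE 0.0862, adjusted p = 1.40e-06, r = 0.84). The macrophage marker C1qa and the T and NK cell marker Nkg7 were among the 83 genes, and their part in the members' slopes was not tested beyond the macrophage covariate. In the 23 matching strains 2 members passed, Dhx58 (0.67) and Irf9 (0.73), each with an adjusted p of 0.0197, where 28 of all genes did (0.0721%).

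A member on the arrays of one diet shares no pool with Irf7 on the arrays of the other. With the member on chow and Irf7 on high fat, 0 of 35 members passed by limma in 38 strains (14 at an unadjusted p below 0.05, beside 2.72% of all genes), with a median correlation of 0.285. The reverse gave 1 member, Bst2 (slope 2.86, SE 0.461, adjusted p = 0.0101), with 8 at an unadjusted p below 0.05 and a median correlation of 0.202. In the 23 strains 0 passed either way, with 27 and 19 members at an unadjusted p below 0.05 (beside 4.77% and 3.63% of all genes) and median correlations of 0.557 and 0.411.

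The 8 other named genes whose strain means were most like Irf7 were Oas1g (r = 0.84 over 38 strain means), Rnf213 (0.75), Oas1b (0.72), Trim30c (0.71), Phf11a (0.70), Phf11b (0.69), Adar (0.65) and Phf11d (0.64). Over the same strain means the 630 pairs of members had a median correlation of 0.58, from -0.09 (Ifi35 with Dtx3l) to 0.94 (Herc6 with Parp14), and 4 pairs lay below 0. Members that neighbour each other in the genome were not always the most alike. Oas1a and Oas2 had a correlation of 0.93, Ifit1 and Ifit3 of 0.85 and Mx1 and Mx2 of 0.83. Rsad2 and Cmpk2, also neighbours, had 0.58, and Oas2 and Oas3 had 0.49.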

How the data were processed

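Affymetrix arrays measured expression in 80 pools of RNA from subcutaneous white fat. Per the submitters' processing notes, the authors used RMA in Affymetrix Expression Console, with versions not given in the sources used here. The deposited values are a score: each array had a mean of 8 and an SD of 2 over 65770 features, so RMA values had been rescaled within each array at a step not given in the sources used here. The tests had been planned for log-scale values and were run on this scale. A change is relative to all other features of the array, and precision is limited by how many arrays there are. The array's genome build is not given in the sources used here, so no probe positions are printed.

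Features without a symbol (26355) were left out, and the feature with the highest mean stood for each symbol (38827 genes, no filter on low values). Tests used limma 3.58.1 in R 4.3.3 adjusted by Benjamini-Hochberg, with calls at 0.05. Diet was tested in 38 strains (76 arrays) with strain as a fixed block, since the strain label pairs the arrays. Strain was tested by the F test of the same fit, the parents by a contrast of strain coefficients, and Irf7 by regression over strain means and over diet changes. BXD56, BXD60, BXD92a and BXD96 had chow arrays alone. The fits were checked on simulated data.

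The members, lists and tests were chosen with earlier results of these data known. All 36 members are named, with full values for the 10 largest diet changes (11 with a tie at 2 decimals), members called between parents, the 6 largest and 3 smallest strain shares, and Irf7, Stat2, Irf9, Rsad2, Bst2, Isg15, Ifit1 and Mx1. Other genes named were the 8 most like Irf7 and the 3 largest called changes of each pathway list. H2-D1, Ifi205, Gbp5, Gbp6, Tgtp1 and Trim34a had no symbol match. The check of strain labels and the 23 strains were added after the data were seen. Promoter windows are RefSeq's.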

Additional observations from a re-analysis of the deposited data

How the results depend on the processing

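With strain left out as a block (no replicate block), 16 members were higher on high fat and 0 lower, and 8 pathway genes were lower in place of 14. The block comes from the strain label. Quantile normalization gave 22 lower pathway genes and 16 higher members (Irf9, Gbp3 and Irgm1 lost their calls). Covariates for B cell, muscle and skin markers left 12 members higher. The macrophage covariate left 0 higher and 1 lower, with 11 pathway genes higher and 8 lower in place of 43 and 14. In the 23 matching strains with that covariate 1 member was higher, and 12 and 1 pathway genes were higher and lower. Of all genes 21.3% were higher and 12.4% lower with that covariate in 38 strains, and 12.3% and 9.51% in the 23. Robust regression gave 24 lower pathway genes, 36 members with a strain effect in place of 13, and 14 members lower and 1 higher in DBA/2J in place of 2 and 0. Without the lowest 40% of genes, which drops Isg15, 4 members were lower in DBA/2J. In the 23 matching strains 30 members had a strain effect, 7 were lower and 1 higher in DBA/2J, and 2 tracked Irf7 in the diet change. Against 18 members tracking Irf7 over strains in the main result, 0 passed with the gene on chow and Irf7 on high fat, and 1 the other way round, Bst2, which is not among the 18. Shares of all genes are given only for the main fits, the 23 strains, the macrophage covariate and the fits on Irf7. Under the other settings the counts cannot be set beside all genes, and they say nothing particular to the members. The cause of these shifts was not tested.

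Leaving out each strain in turn gave 18 to 21 members higher and 0 lower on high fat, 40 to 45 and 11 to 16 pathway genes higher and lower, 8 to 20 members with a strain effect (8 without BXD45 or BXD100, 20 without BXD51), 1 to 5 members lower (5 without BXD51; 1 without any 1 of 22 strains) and 0 higher in DBA/2J, 17 to 21 tracking Irf7 over strains and 16 to 22 in the diet change. The diet call of Rtp4 was lost without any of 14 strains.

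The sign of the diet change turned under some settings. Under quantile normalization this was so for Ifih1 (-0.01), Ddx58 (0.00), Ifi35 (-0.01) and Igtp (-0.01), and with B cell, muscle and skin covariates for Ifih1 (-0.16), Ddx58 (0.00), Mx1 (-0.01), Mx2 (-0.03), Eif2ak2 (-0.06), Xaf1 (-0.02), Gbp2 (-0.06) and Igtp (-0.04). With the macrophage covariate it was so for Ifih1 (-0.21), Ddx58 (-0.03), Stat2 (0.00), Oas2 (-0.08), Ifit1 (-0.05), Ifit2 (-0.07), Ifit3 (-0.15), Mx1 (-0.02), Mx2 (-0.14), Eif2ak2 (-0.13), Bst2 (-0.07), Trim30a (-0.04), Ifi35 (-0.01), Rtp4 (-0.14), Xaf1 (-0.15) and Gbp2 (-0.12). With all 80 arrays and strain as a random block it was so for Mx1 (0.00) and Bst2 (0.00). Leaving out 1 strain turned it in some fits for Ifih1 (range -0.01 to 0.04), Mx1 (-0.01 to 0.03), Mx2 (-0.01 to 0.03), Bst2 (-0.02 to 0.10) and Usp18 (-0.04 to 0.02). The median over features of a symbol left the members as they were, since each has 1 feature, and gave 15 lower pathway genes. No array holds a repeat of a pool, so technical error could not be measured.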
